A study of Rattus norvegicus with 27 samples.

Results

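Deep nucleus projection neuron genes are the 8 genes Slc17a6, Spp1, Lhx9, Nefl, Nefm, Nefh, Ina and Pvalb, which were found by their symbols in the table of read counts on genes. All 8 were among the 17321 genes of the table, and all 8 were among the 12107 that had enough counts for a test. Messenger RNA was sequenced from punches of the interpositus, 1 of the deep cerebellar nuclei, in 27 Long-Evans rats killed at postnatal day 70, and each library was 1 animal. Litters of the limited bedding (LB) groups were kept with scarce nesting material between postnatal days 2 and 9, and the no treatment (NT) groups were reared under normal conditions. There were 5 females and 7 males in NT and 7 females and 8 males in LB. Animals are named by their group and sample title, for example NT male 6112. Total counts per animal ranged from 11836684 to 24169170, and values are given as CPM, counts relative to library size, after scaling of the libraries by the TMM method. The Y-linked gene Eif2s3y had at least 516 counts in each of the 15 males and at most 3 counts in each of the 12 females.

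The cerebellar nuclei, of which the interpositus is a member, send the output of the cerebellum to the red nucleus, thalamus and brainstem. Their large projection neurons release glutamate and load it into vesicles with the transporter VGLUT2, the product of Slc17a6. Granule cells of the cerebellar cortex use the related transporter VGLUT1, so that in adult cerebellum Slc17a6 separates nuclear neurons from the far more numerous granule cells. Large projection neurons with thick axons are also rich in neurofilaments, which are assembled from the light, medium and heavy chains (Nefl, Nefm, Nefh) and alpha-internexin (Ina). Spp1 encodes osteopontin, a secreted phosphoprotein found in large neurons of the brainstem and in microglia, and Lhx9 encodes a LIM homeodomain transcription factor of glutamatergic nuclear neurons. Pvalb encodes the calcium buffer parvalbumin, which Purkinje cells and molecular layer interneurons also contain.

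In the rn6 genome used for the counts, Slc17a6 lay on chromosome 1 from 106998704 to 107038704 on the plus strand, with 12 exons. Ina lay on the same chromosome from 266782835 to 266794389 on the plus strand. Nefl (44799378 to 44803251, plus strand) and Nefm (44855308 to 44860595, minus strand) were neighbours on chromosome 15, separated by 52056 bases with 0 other genes of the table between them. Spp1 (6673686 to 6679921) and Nefh (85181572 to 85191557) lay on the minus strand of chromosome 14. Lhx9 lay on chromosome 13 from 55861015 to 55878094 and Pvalb on chromosome 7 from 119429018 to 119441487, both on the minus strand. No exon of another gene in the table overlapped an exon of these 8 genes.

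Promoter sequences are shown for 2 pairs of genes whose RNA varied together over the animals (below), Slc17a6 with Spp1 and Ina with Pvalb. The RefSeq table for the GRCr8 assembly held 4 of the 8 genes, namely these 4. Each sequence is the 250 bases before the annotated start, from 5′ to 3′ on the strand of the gene, with motif matches in capitals. The positions are chr1:110348197-110348446 for Slc17a6, chr14:5619805-5620054 for Spp1, chr1:255837879-255838128 for Ina and chr7:111666290-111666539 for Pvalb, on the strands named above.
Slc17a6: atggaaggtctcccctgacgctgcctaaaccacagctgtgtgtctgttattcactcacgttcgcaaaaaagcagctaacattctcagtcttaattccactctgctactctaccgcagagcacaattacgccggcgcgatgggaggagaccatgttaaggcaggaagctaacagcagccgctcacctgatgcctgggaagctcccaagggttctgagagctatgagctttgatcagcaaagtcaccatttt
Spp1: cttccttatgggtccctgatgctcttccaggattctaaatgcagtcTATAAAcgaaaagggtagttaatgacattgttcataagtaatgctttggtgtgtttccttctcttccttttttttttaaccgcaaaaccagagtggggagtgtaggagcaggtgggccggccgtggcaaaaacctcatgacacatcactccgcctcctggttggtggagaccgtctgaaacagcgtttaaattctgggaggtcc
Ina: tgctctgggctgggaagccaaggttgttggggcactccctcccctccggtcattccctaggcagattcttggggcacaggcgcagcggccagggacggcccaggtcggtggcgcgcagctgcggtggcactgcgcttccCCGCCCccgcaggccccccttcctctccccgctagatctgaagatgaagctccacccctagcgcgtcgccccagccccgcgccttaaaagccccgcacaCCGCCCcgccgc
Pvalb: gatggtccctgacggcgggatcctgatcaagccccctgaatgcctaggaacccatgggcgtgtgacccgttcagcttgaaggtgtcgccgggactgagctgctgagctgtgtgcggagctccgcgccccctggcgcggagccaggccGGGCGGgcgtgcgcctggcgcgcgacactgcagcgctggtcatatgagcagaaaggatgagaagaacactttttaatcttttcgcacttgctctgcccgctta
The motifs searched on both strands were the TATA box TATAAA, the GC box GGGCGG, the CCAAT box and the homeodomain motif TAATTA, and no matches overlapped. Spp1 had 1 TATAAA, which 12.9% of all 33469 promoters of the same length held. This match lay toward the 5′ end of the window, far from the annotated start, and its use as a TATA box was not tested. Ina had 2 GC boxes and Pvalb had 1, a motif found in 30.5% of promoters. Slc17a6 had none of the motifs in this window, and none of the sequences had CCAAT (34.0% of promoters) or TAATTA (4.86%). The share of G and C was 50.8% for Slc17a6, 46.8% for Spp1, 70.8% for Ina and 62.8% for Pvalb, against a median of 51.2% over all promoters.

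Several punches stood apart before any comparison. NT male 6112 was the highest of all 27 animals for 6 of the 8 genes (Slc17a6, Spp1, Lhx9, Nefl, Nefm and Nefh) and the lowest for Pvalb. The same punch held the choline transporter Slc5a7 at 131 CPM, the acetylcholine enzyme Chat at 18.9 CPM and peripherin (Prph) at 55.7 CPM, genes of cholinergic motor neurons. Prph was next highest in NT male 3111, at 13.1 CPM. Summed over the 7 listed motor neuron genes in the table, the level in the other groups reached at most 0.694 CPM in NT females, 3.31 CPM in LB females and 12.1 CPM in LB males. Of these genes Mnx1 was at 0 counts in 26 of the 27 animals, Tbx20 in 24 and Isl1 in 22. The Hox genes of the brainstem summed to at most 1.21 CPM in any animal, in NT male 3111. Their sum was at most 0.148 CPM in NT females, 0.229 in LB females and 0.343 in LB males. The choroid plexus gene Ttr reached 6342 CPM in NT male 4113, against a median of 16.9 CPM. The part of these cells in the results was not tested, and the comparison of NT males with NT females is also given without NT male 6112.

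Levels differed widely among the 8 genes when set per kilobase of exon. The median over all animals was 3155 CPM per kilobase for Pvalb and 207 for Ina. Nefl, Nefh and Nefm followed at 93.3, 83.1 and 76.5 CPM per kilobase. Their order was not fixed, since the ratio of Nefh to Nefl ran from 0.368 to 1.79 between animals and that of Nefm to Nefl from 0.402 to 1.52. Spp1 (1.91), Slc17a6 (0.698) and Lhx9 (0.340 CPM per kilobase) were the lowest. The punches were labelled as interpositus, but the defining transporter of its projection neurons was low in most of them. Slc17a6 was at most 3.26 CPM in all 12 females, whereas 10 of the 15 males exceeded every female.

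Slc17a6, the vesicular transporter, was nearly constant in NT females. Its level was 2.90 CPM in NT female 1011, 2.46 in 1013, 2.51 in 2011, 2.495 in 2012 and 2.52 in 2013. In NT males the level ran from 0.280 to 380.3 CPM with a median of 11.96, a range of 1359-fold. The values above 20 CPM were 30.1 in NT male 4113, 59.9 in 3111 and 380.3 in 6112. Thus 6 of the 7 NT males lay above every NT female and 1, NT male 4111, lay below them all. LB females ran from 1.04 to 3.26 CPM (median 2.17). LB males ran from 0.475 to 74.9 CPM (median 5.58), with LB males 7122 (74.9) and 121 (21.6) highest, and 4 of the 8 exceeded every LB female.

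Spp1, the secreted phosphoprotein, had the same high NT males. NT females had 2.73 CPM (1011), 1.88 (1013), 2.22 (2011), 3.21 (2012) and 2.84 (2013). NT males ran from 1.22 to 441.5 CPM with a median of 8.40, and the highest 3 were 90.7 in NT male 3111, 98.0 in 4113 and 441.5 in 6112. In NT males 4 of the 7 lay above every NT female and 2 below. LB females ran from 1.92 to 6.68 CPM (median 2.83). LB males ran from 2.25 to 25.6 CPM (median 3.57), and their highest value was again in LB male 7122.

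Lhx9, the transcription factor, was close to the limit of counting. Between 1 and 149 counts were seen per animal, and 5 animals had at most 3. Its medians were 0.442 CPM in NT females, 0.451 in NT males, 0.380 in LB females and 0.403 in LB males. The values above 1 CPM were 7.28 in NT male 6112, 6.20 in LB male 7122 and 2.58 in LB male 121. All 3 were punches with Slc17a6 above 20 CPM, while NT males 3111 and 4113, which also had high Slc17a6, had Lhx9 at 0.694 and 0.600 CPM. The groups overlapped for this gene.

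**Figure D1:**
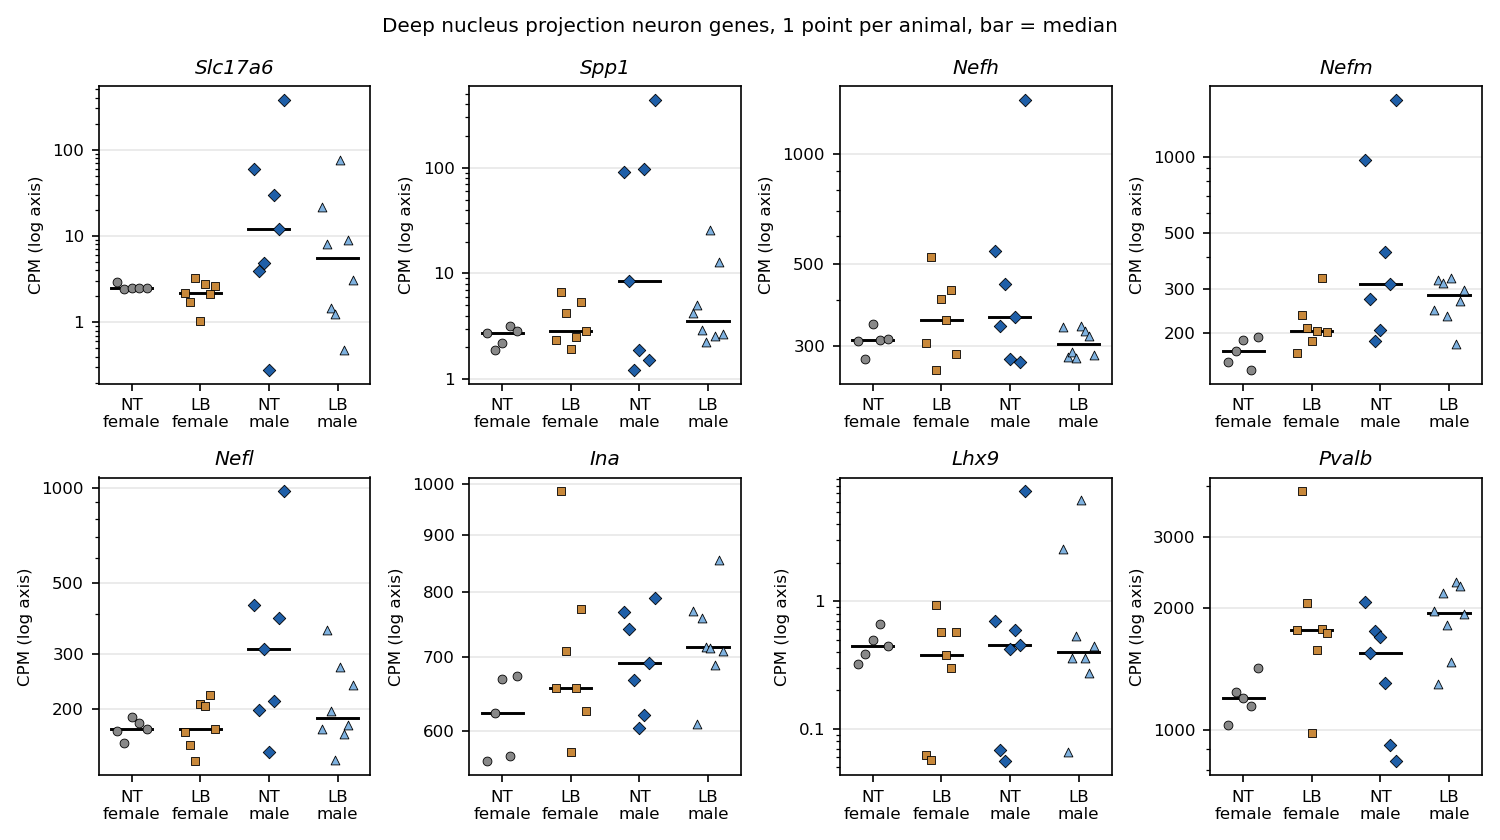
CPM of each gene (vertical log axes, which differ in range) in every animal by group, with bars at group medians. Slc17a6 in NT females lies between 2.46 and 2.90 CPM, and in NT males between 0.280 and 380.3 CPM.

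The neurofilament genes were abundant in every punch, and NT males 6112 and 3111 were the highest animals for all 3 chains. Nefm, the medium chain, was 154 CPM in NT female 1011, 170.4 in 1013, 188 in 2011, 143 in 2012 and 194 in 2013. NT males ran from 187 to 1683 CPM (median 314), and 6 of the 7 exceeded every NT female. LB females ran from 168 to 331 CPM (median 205) and LB males from 182 to 332 CPM (median 283). Nefl, the light chain on which the filament is built, was 171 CPM in NT female 1011, 156 in 1013, 189 in 2011, 182 in 2012 and 173 in 2013. NT males ran from 147 to 977 CPM (median 309.6), again with 6 of the 7 above every NT female and 1 below. LB females ran from 137 to 221 CPM (median 174) and LB males from 138 to 355 CPM (median 188). After NT males 6112 and 3111 the highest Nefl levels were 388 CPM in NT male 6111, 355 in LB male 122 and 309.6 in NT male 3113, and NT males 3113 and 6111 had the lowest Spp1 of all animals (1.22 and 1.504 CPM). Meis2, a transcription factor, was 69.1 CPM in NT male 6111, 49.5 in LB male 122 and 38.25 in NT male 3113, against a mean of 0.690 CPM in NT females. It was highest in NT male 6112 (99.7 CPM), and LB males 7122 (37.3) and 9123 (29.4) and NT male 3111 (21.9) were also high. The part of Meis2 in these levels was not tested. In Nefh, the heavy chain, NT females ran from 276 to 344 CPM and 4 of the 7 NT males, up to 1414 CPM, exceeded them. LB females ran from 257 to 523 CPM and LB males from 277 to 339 CPM, so that none of the LB males exceeded every LB female. The highest Nefh after the 2 NT males was in LB female 5022 (523 CPM).

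The chains did not rise by the same factor in each punch. In NT male 6111, Nefl was 388 CPM while Nefh was 271 CPM, and the ratio of Nefh to Nefl per kilobase was 0.368, the lowest of all animals. In LB male 122 that ratio was 0.416, the lowest among LB males. In LB female 5022 the ratio was 1.79, the highest of all animals.

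Ina and Pvalb had the highest median levels per kilobase of the 8 genes. Ina, the fourth neuronal filament protein, varied least of all 8 genes, from 564 to 985 CPM or 1.75-fold over all animals. Its medians were 624 CPM in NT females, 691 in NT males, 656 in LB females and 713 in LB males. Pvalb ran from 839 CPM in NT male 6112 to 3889 CPM in LB female 5022, and its medians were 1205 CPM in NT females, 1550 in NT males, 1771 in LB females and 1952 in LB males. LB female 5022 was the highest of all animals for both genes. The gene whose pattern was most like that of Pvalb was the Purkinje cell gene Pcp2, with r = 0.95 over 27 animals and 0.92 without the 2 animals farthest from the median of Pvalb. Of the 12099 other genes tested, 991 had r over 0.7 with Pvalb. The score of all 10 listed Purkinje cell markers (scores are described below) had r = 0.14 with Pvalb and did not pass (permutation adjusted p = 0.642).

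Between NT males and NT females, 4 of the 8 genes were called different by the edgeR quasi-likelihood test with adjustment over all 12107 genes, and all 4 were higher in males. Spp1 was higher by 5.15 on the log2 scale (SE 1.19, adjusted p = 0.0123) and Slc17a6 by 4.77 (SE 1.29, adjusted p = 0.0196). Nefm rose by 1.77 (SE 0.397, adjusted p = 0.0117) and Nefl by 1.13 (SE 0.319, adjusted p = 0.0231). For the other 4 the differences were 0.75 for Nefh (adjusted p = 0.0736), 1.58 for Lhx9 (0.266), 0.26 for Pvalb (0.474) and 0.17 for Ina (0.298). Of all genes tested 15.2% were called in this comparison, 10.1% as higher in males. The median difference was 1.35 over the 8 genes and 0.03 over all genes. The ranges of NT males and NT females overlapped for each of the 8 genes. In a bulk punch fewer cells of a type and less RNA per cell cannot be told apart. The spread was uneven, with the 5 NT females within 2.06-fold of each other for every one of the 8 genes and the NT males up to 1359-fold apart.

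**Figure D2:**
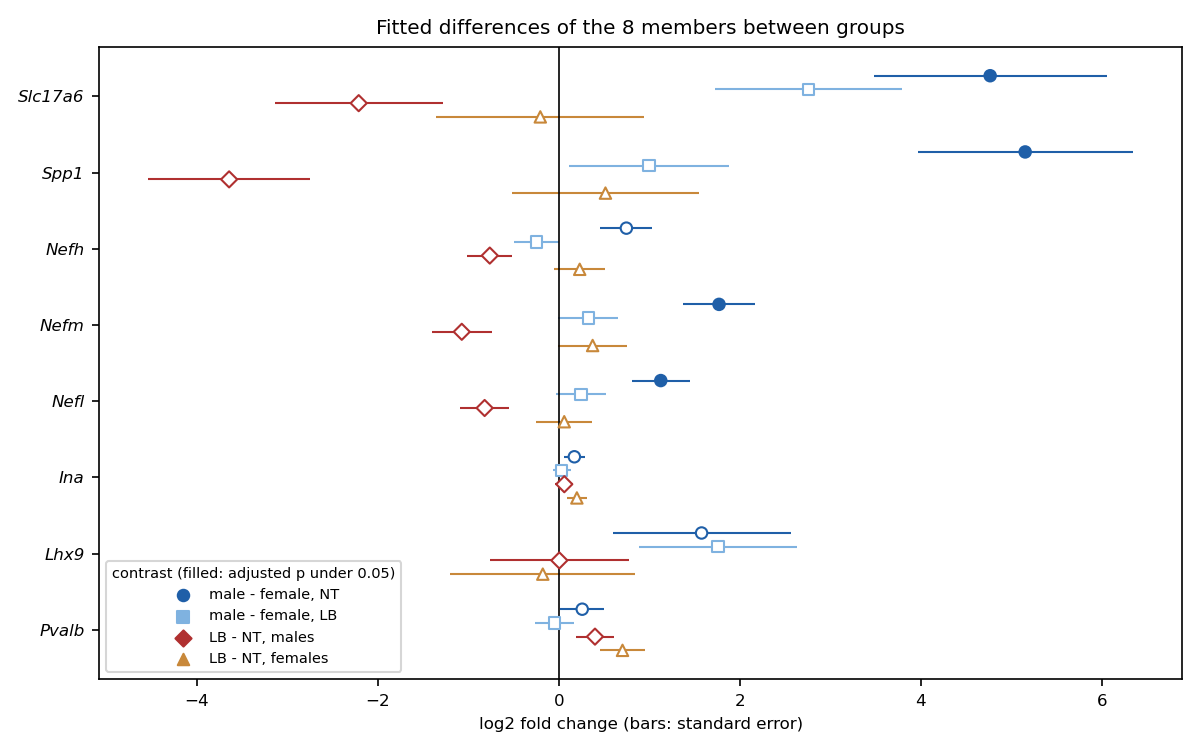
Log2 fold change of each gene (horizontal axis, bars are standard errors derived from the F statistic) in 4 comparisons, with filled symbols where the adjusted p was under 0.05. The only filled symbols are those of Slc17a6, Spp1, Nefm and Nefl between NT males and NT females.

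Other cells moved with this difference. Of the oligodendrocyte markers, all 7 of 7 were higher in NT males than NT females, with summed levels of 7621 to 11710 CPM in NT females and 11120 to 52560 CPM in NT males. Of the microglia markers, 4 of 7 were higher (91.3 to 115 CPM against 108 to 246 CPM), and 3 of 3 tested motor neuron genes were higher (0.492 to 0.694 CPM against 0.630 to 217 CPM). Of the choroid plexus markers 2 of 5 were higher (20.5 to 87.8 CPM against 11.5 to 6494 CPM), and of the tested meninges markers 2 of 6 (847 to 1405 CPM against 1164 to 2407 CPM). Over all animals 6 of 6 meninges markers were higher in males, against 16.9% of all genes. Among astrocyte markers 2 of 6 were higher and 1 lower. By contrast, 5 of the 10 granule cell markers were lower in NT males (7382 to 8430 CPM against 2454 to 7232 CPM), and 5 of the 10 Purkinje cell markers were lower (5416 to 5844 CPM against 3285 to 5959 CPM). Of the tested molecular layer interneuron markers 1 of 3 was lower, and 0 of 4 inhibitory nuclear neuron and 0 of 3 endothelium markers were called. When the granule cell score was added to the model, 0 of the 8 genes were called, the difference of Slc17a6 was 0.67 and that of Spp1 was 2.19 (adjusted p = 0.923 and 0.690). In that model 3 genes were called among all those tested.

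Some of the differences and calls also depended on single animals. Without NT male 6112 the genes called were Spp1 and Nefm, and the differences were 3.7 for Spp1 (adjusted p = 0.0303), 1.22 for Nefm (0.0259), 2.84 for Slc17a6 (0.0684), 0.69 for Nefl (0.0599) and 0.26 for Nefh (0.293). Lhx9 turned to -0.32 without that animal. Without NT female 1011, Slc17a6 (adjusted p = 0.0520) and Nefl (0.0571) were also no longer called. That animal was itself the highest NT female for Slc17a6 (2.90 CPM). Without it the number called among all genes fell from 1840 to 590, the lowest of the fits without single animals. The highest was 2735, and the number without NT male 6112 lay between these. Sample titles that differ in the final digit alone formed 10 sets of 2 to 4 animals, each of 1 group, with 2 or 3 sets in every group, and the labels do not say what a set is. With these sets as a block in limma-voom, 0 of the 8 genes were called and 2 among all genes. The differences were 2.53 for Spp1 (adjusted p = 0.336), 2.32 for Slc17a6 (0.385), 1.33 for Nefm (0.0918) and 0.87 for Nefl (0.134). limma-voom without the block gave nearly the same differences, 2.48 for Spp1, 2.30 for Slc17a6, 1.31 for Nefm and 0.86 for Nefl, and called only Nefm, against 10.2% of all genes.

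Between LB males and LB females, 0 of the 8 genes were called by edgeR, and 0.248% of all genes were. Slc17a6 was 2.76 higher in males on the log2 scale (SE 1.03, unadjusted p = 0.0125, adjusted p = 0.176), the only one of the 8 with an unadjusted p under 0.05, which 17% of all genes had. DESeq2 and limma-voom also called 0 of the 8 here. The other differences ran from -0.25 for Nefh to 1.76 for Lhx9. Without LB male 7122 the difference was 1.53 for Slc17a6 and 0.71 for Lhx9, and without LB female 5022 it was -0.14 for Nefh.

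Over all animals, the same comparison of males with females called Slc17a6 (3.76, adjusted p = 0.00271), Spp1 (3.07, 0.00384), Nefm (1.05, 0.00494) and Nefl (0.69, 0.0174), all higher in males. Of all genes tested 29.3% were called, 16.9% as higher in males. Lhx9 was 1.67 higher with an adjusted p of 0.0562, and 0.72 higher without NT male 6112 (adjusted p = 0.341). This comparison shares its animals with that of NT rats and is no separate evidence. With the granule cell score in the model, 0 of the 8 were called and 5 among all genes. With the title sets as a block, 0 of the 8 were called and 1023 among all genes.

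Limited bedding was compared with normal rearing in each sex. In males 0 of the 8 genes were called by edgeR, and 0% of all genes were. At an unadjusted p under 0.05, 5 of the 8 and 5.01% of all genes were lower in LB males. The differences were -3.65 for Spp1 (SE 0.892), -2.21 for Slc17a6 (SE 0.929), -1.07 for Nefm (SE 0.332), -0.82 for Nefl (SE 0.273) and -0.76 for Nefh (SE 0.249), with adjusted p values from 0.462 to 0.479. DESeq2 called 1 of the 8, Spp1, at -3.67 (adjusted p = 0.0333), and 3 of all genes (0.0248%). Without NT male 6112 the edgeR differences were -2.20 for Spp1, -0.29 for Slc17a6, -0.52 for Nefm, -0.38 for Nefl and -0.28 for Nefh. Of these, Slc17a6 had an adjusted p of 0.962 and the others of 0.939. Without LB male 7122 the difference of Slc17a6 was -3.44.

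In females 0 of the 8 genes were called between LB and NT rats, against 0.00826% of all genes. Pvalb was 0.70 higher in LB females (SE 0.245, unadjusted p = 0.00791, adjusted p = 0.576), and 6 of the 7 LB females lay above every NT female while LB female 8021 lay below. Slc17a6 differed by -0.21 (SE 1.15) and Spp1 by 0.51 (SE 1.03). Over both sexes the difference called 0 of the 8 (0.00826% of all genes), with Pvalb at 0.55 (SE 0.162, adjusted p = 0.182) and Spp1 at -1.57 (SE 0.661, adjusted p = 0.276). Without NT male 6112 the difference of Spp1 was -0.84 (adjusted p = 0.580). Pvalb was called by DESeq2 (adjusted p = 0.0423, with 0.851% of all genes) and by edgeR without LB female 8021 (adjusted p = 0.0422, with 2.73% of genes). Without LB female 5022, the highest animal, the difference of Pvalb was 0.45 in females and 0.42 over both sexes. The interaction of sex and treatment was called for 0 of the 8 genes and 0% of all genes. At an unadjusted p under 0.05 it was below 0 for 3.39% of all genes and for 4 of the 8, Spp1 (-4.16), Nefm (-1.45), Nefh (-0.99) and Nefl (-0.88), each with an adjusted p of 0.9998. Without NT male 6112 these were -2.71, -0.90, -0.51 and -0.44.

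Covariation over the 27 animals was measured by Pearson's r on log2(CPM + 0.5), with permutation p values adjusted over the 28 pairs of the 8 genes. Of these pairs, 16 had a positive and 1 a negative correlation with an adjusted p under 0.05. Spp1 and Nefm were closest (r = 0.87, Spearman's rho = 0.66, permutation adjusted p = 0.00014 for r and 0.00644 for rho). Slc17a6 correlated with Spp1 (r = 0.84, rho = 0.54), Nefm (r = 0.81, rho = 0.57) and Nefl (r = 0.77, rho = 0.62), with permutation adjusted p values of 0.00014 to 0.000336 for r and 0.00889 to 0.0193 for rho. Lower values of r were found with Lhx9 (r = 0.71, rho = 0.36) and Nefh (r = 0.61, rho = 0.24), for which rho did not pass (permutation adjusted p = 0.159 and 0.304). Among the 15 pairs without Ina and Pvalb, 14 passed, whereas 2 of the 7 pairs with Ina did. Pvalb was correlated with Ina (r = 0.63, permutation adjusted p = 0.00184, and r = 0.41 without LB female 5022 and LB male 9122) and inversely with Nefl (r = -0.44, permutation adjusted p = 0.0446).

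**Figure D3:**
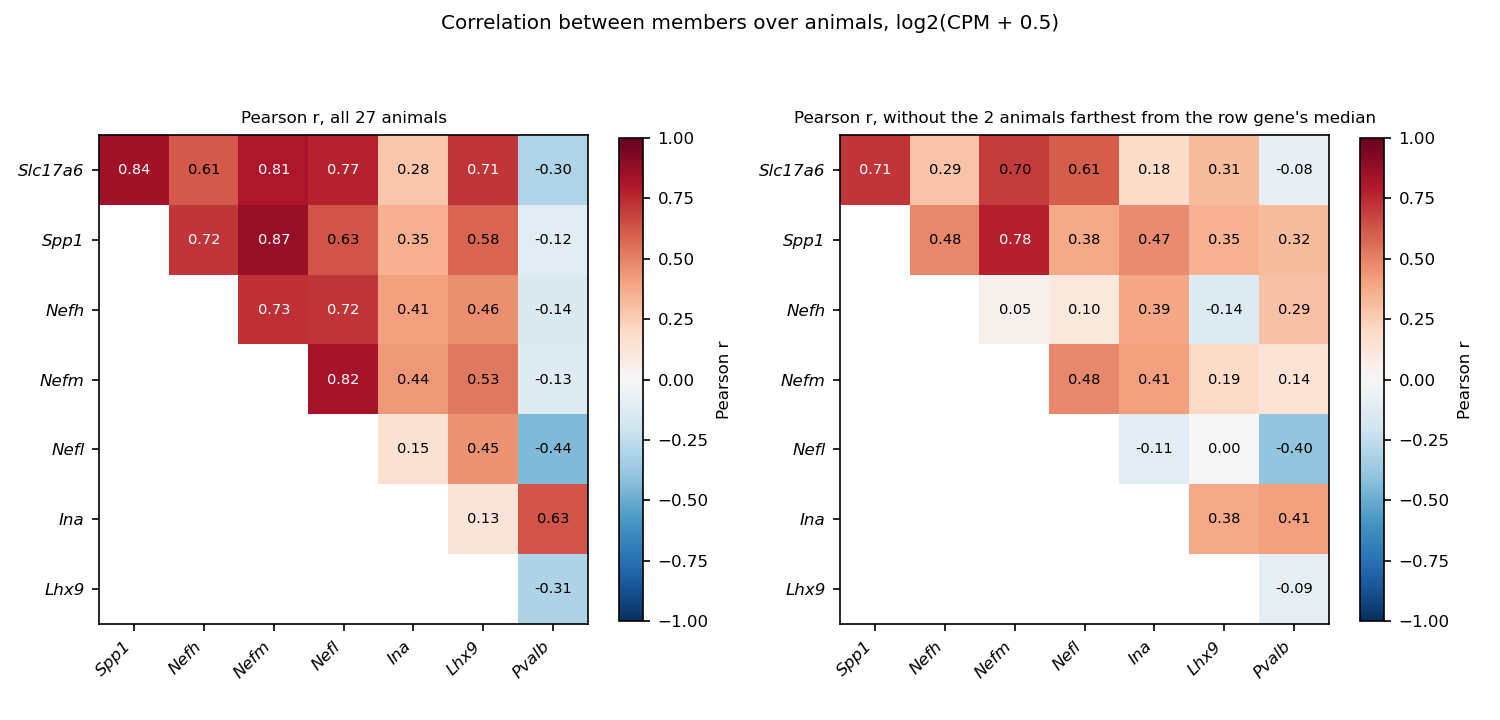
Pearson's r between the genes over 27 animals (left) and without the 2 animals farthest from the median of the row gene (right), in colour and figures. Slc17a6 with Spp1 is 0.84 on the left and 0.71 on the right, and Nefh with Nefm is 0.73 and 0.05.

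Part of the covariation rested on few punches. Without the 2 animals farthest from the median of the first gene, r was 0.71 for Slc17a6 with Spp1, 0.70 with Nefm, 0.61 with Nefl, 0.31 with Lhx9 and 0.29 with Nefh. Spp1 with Nefm remained at 0.78. Nefm with Nefl fell to 0.48, Nefh with Nefm to 0.05 and Nefh with Nefl to 0.10. The relations of Nefh with the other neurofilament chains therefore rested on those animals, and 4 of the 28 pairs passed without them. Without NT male 6112 alone, 7 of the 28 pairs passed in place of 17, namely Slc17a6 with Spp1 (r = 0.74), Nefm (0.68), Nefl (0.62) and Lhx9 (0.55), Spp1 with Nefm (0.77), Nefm with Nefl (0.65) and Ina with Pvalb (0.79).

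The relations were also computed inside groups and title sets. With values centred on group means, 15 positive and 1 negative pair passed, and r was 0.81 for Slc17a6 with Spp1 and 0.76 with Nefm. With values centred on title sets and permuted inside them, 5 of the 28 passed, among them Slc17a6 with Spp1 (r = 0.86) and Spp1 with Nefm (r = 0.90). Inside NT males r was 0.86 for Slc17a6 with Spp1, and inside LB males 0.84. Inside LB females, where Slc17a6 spanned 3.14-fold, it was 0.17, and Slc17a6 with Nefh was -0.66. For the 15 pairs without Ina and Pvalb the median r was 0.84 in NT males, 0.53 in LB males and 0.06 in LB females. Ina with Pvalb was -0.22 inside NT males, 0.92 inside LB females and 0.69 inside LB males, and inside NT males Ina had 0.76 with Nefl, 0.72 with Nefm and 0.68 with Slc17a6. NT females, with 5 animals, were too few.

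**Figure D4:**
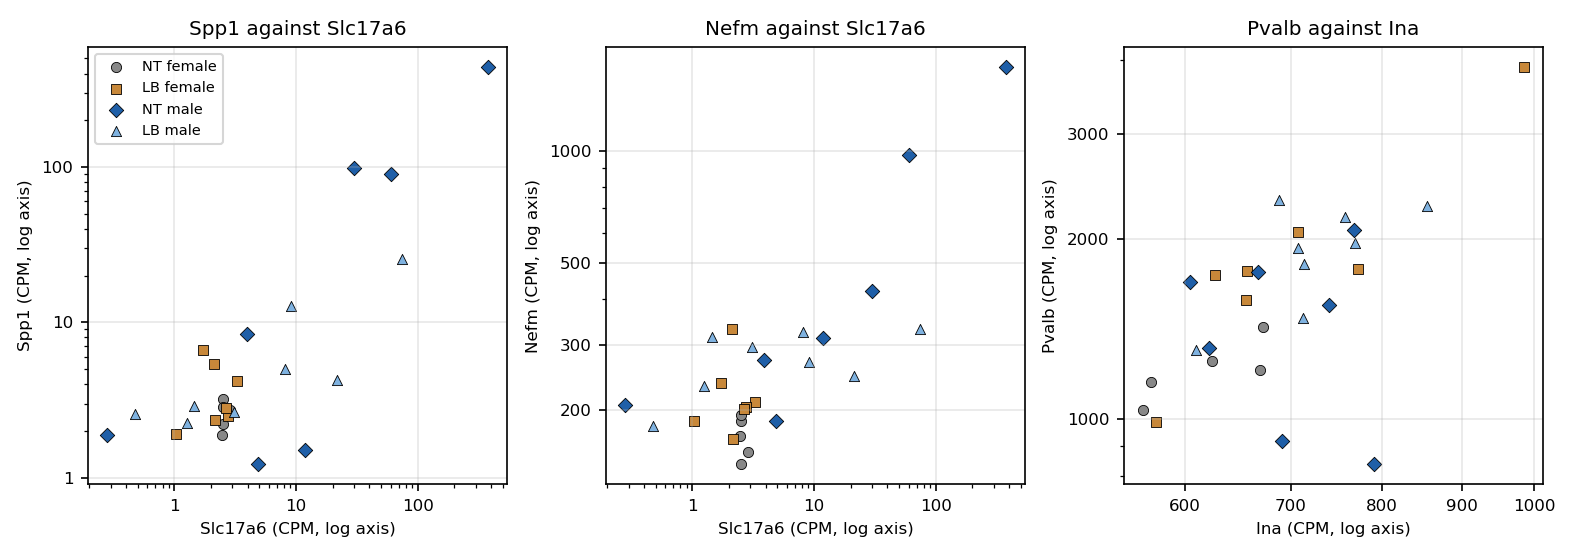
Each point is 1 animal, with CPM on log axes, for Spp1 and Nefm against Slc17a6 and for Pvalb against Ina. NT male 6112 is at the upper right of both panels with Slc17a6 (380.3 CPM) and is the lowest animal for Pvalb (839 CPM).

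The genes were set against scores of other cell types, each the mean of log2(CPM + 0.5) after centring over those listed markers that were tested. Of the 8 listed motor neuron genes 3 were tested, 1 of them the filament gene Prph, so that the motor neuron score rests on 3 genes. Slc17a6 correlated with the motor neuron score (r = 0.81), the microglia score (r = 0.61) and the oligodendrocyte score (r = 0.56), and inversely with the Purkinje (r = -0.70) and granule cell (r = -0.63) scores. Without the 2 animals farthest from its median these were 0.73, 0.47, 0.45, -0.58 and -0.48. Over all 96 pairs of a gene and a score, 18 positive and 13 negative correlations had a permutation adjusted p under 0.05. Nefl had r = 0.94 with the motor neuron score and -0.78 with the granule cell score, and Spp1 had r = 0.78 with the oligodendrocyte score. Lhx9 passed with 0 of the 12 scores. Ina and Pvalb correlated with the endothelium score (r = 0.54 and 0.62) and inversely with the molecular layer interneuron score (r = -0.58 and -0.69) and the inhibitory nuclear neuron score (r = -0.51 and -0.62). That last score came from Gad1, Gad2, Slc32a1 and Slc6a5, and which inhibitory cells it reflects was not tested. None of the 8 genes passed with the choroid plexus, meninges or astrocyte score. With values centred on group means, r of Slc17a6 was 0.75 with the motor neuron score (permutation adjusted p = 0.0326). It was -0.57 with the Purkinje score and -0.51 with the granule cell score, which did not pass (permutation adjusted p = 0.124 and 0.191). Centred on title sets, none of these passed (permutation adjusted p = 0.215, 0.337 and 0.408).

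**Figure D5:**
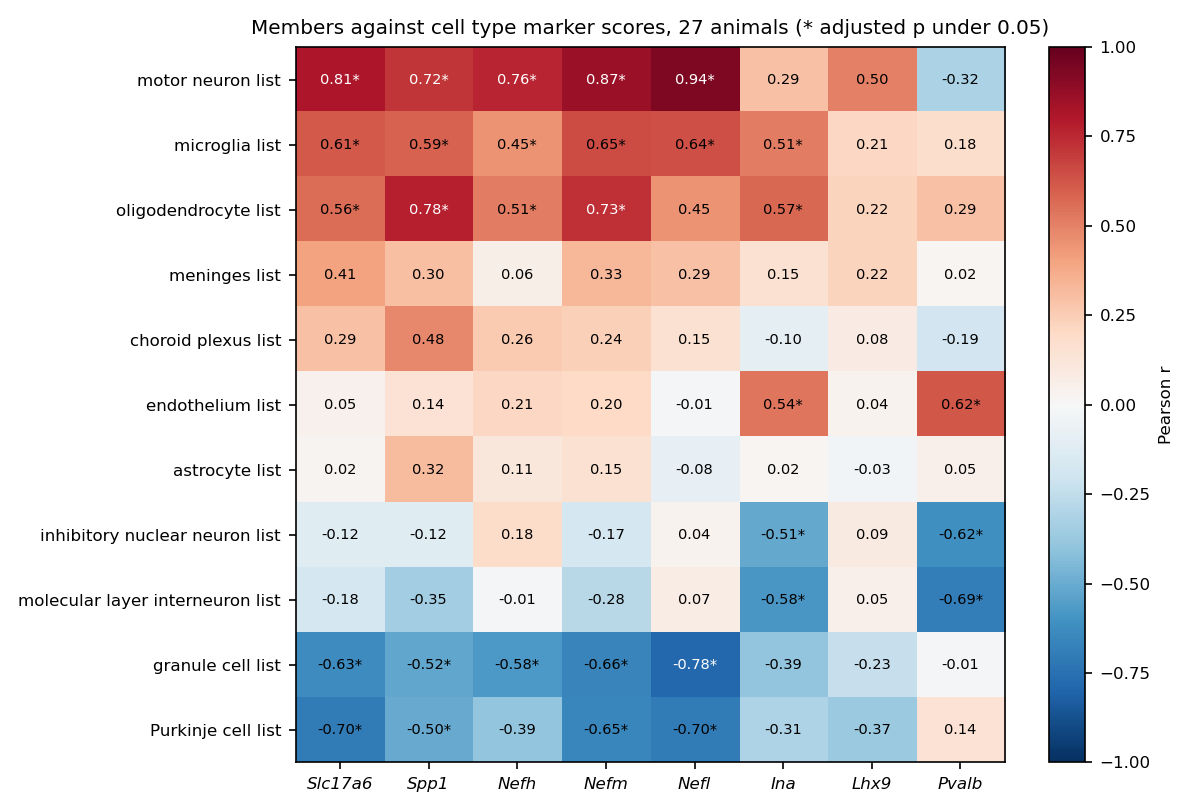
Pearson's r over 27 animals between each gene (columns) and the cell type marker scores (rows), with an asterisk where the permutation adjusted p over 96 pairs was under 0.05. Slc17a6 has 0.81 with the motor neuron list and -0.70 with the Purkinje cell list.

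The genes most like Slc17a6 over the 27 animals included receptors and matrix proteins of neurons. The 10 highest were Htr2c, the serotonin 2C receptor (r = 0.86), Phlda3 (0.85), the vesicle protein gene Scg2 (0.85), Arhgap24 (0.85), the growth factor gene Fgf1 (0.85), Zfhx4 (0.84), the glycine receptor subunit Glra1 (0.83), the perineuronal net protein Acan (0.83), Vwc2 (0.83) and Nfatc2 (0.83). NT male 6112 was the highest animal for 8 of these, and Htr2c there was 188 CPM against a median of 3.33. Without the 2 animals farthest from the median of Slc17a6, Htr2c remained at r = 0.80 and Acan at 0.64. The 5 lowest were Wdr5 (-0.80), Cnot9 (-0.80), Car7 (-0.78), Inpp1 (-0.78) and Mapk14 (-0.75). Among the 12099 other genes tested, 142 had r over 0.7 with Slc17a6 and 27 had r under -0.7. For the other genes the nearest were P2rx6 for Spp1 (0.93), Ankrd55 for Nefl (0.93), Arhgap24 for Nefm (0.91), Pacsin2 for Nefh (0.87), Phyh for Ina (0.86) and Krt71 for Lhx9 (0.80, and 0.41 without 2 animals).

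Other genes of long axons and of fast-firing projection neurons were read from lists. Of 24 genes of the axon cytoskeleton and transport that were tested, 5 were higher in NT males than NT females and 0 were lower, against 10.1% of all genes higher and 5.08% lower. They were the filament genes Prph (4.89, adjusted p = 0.0134) and Nes (0.78, 0.0361), the tubulin Tubb3 (0.98, 0.0245), the motor Kif5b (0.65, 0.0360) and the ubiquitin hydrolase Uchl1 (1.80, 0.0148). The list's median difference was 0.20 against 0.03 over all genes. Of 18 fast-firing projection neuron genes, 4 were higher and 2 lower, with a median of -0.12. The higher ones were the transcription factors Meis2 (5.595, adjusted p = 0.0132), Lhx2 (4.53, 0.0238) and Pou3f1 (3.35, 0.0155) and the synuclein Sncg (1.82, 0.0140). The vesicle protein Syt2 (-1.22, 0.0113) was among the lower ones. None of the 7 tested transmitter transporters and enzymes were called, and Slc17a7, which encodes VGLUT1, differed by -0.48 (adjusted p = 0.276). With the granule cell score in the model or the title sets as a block, 0 genes of these 3 lists were called in NT rats, against 3 and 2 among all genes. Over all animals, males against females, 7 axon genes were higher and 2 lower, 4 fast-firing genes higher and 5 lower, and 4 of the 7 transmitter genes lower, against 16.9% of all genes higher and 12.4% lower. The lower transmitter genes included the GABA enzymes Gad1 (-0.31, adjusted p = 0.0243) and Gad2 (-0.85, 0.0454) and the vesicular transporter Slc32a1 (-0.28, 0.0246). In the other comparisons of 2 groups, LB males with LB females and LB with NT rats of each sex, 0 genes of these 3 lists were called by edgeR.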

How the data were processed

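Punches 2 mm wide were taken from 3 successive 1 mm sections over the interpositus of 27 rats, and mRNA libraries were sequenced. The authors aligned the reads to the rat genome (rn6) with STAR 2.5.2b, counted reads per gene with featureCounts (Subread 1.5.1), and the deposited table holds those raw counts for 17321 genes with no scaling applied. The annotation release and the handling of strand and of reads with several matches are not given in the sources used here.

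From these counts, edgeR 4.0.16 (R 4.3.3) was used to drop low genes (filterByExpr with at least 10 counts, and 15 in total), scale libraries by TMM and fit all 4 groups in a single robust quasi-likelihood model (prior count 0.125). Benjamini-Hochberg adjustment covered the 12107 genes tested in each of 7 comparisons, with a threshold of 0.05. Each standard error (SE) was derived from the test, as the size of the log2 difference divided by the square root of its quasi-likelihood F statistic. Correlations used log2(CPM + 0.5) and two-sided permutation tests with 100000 resamples (smallest p 1e-05). Adjustment was over 28 pairs of genes or, for scores, 96 pairs, and over the 12 scores where alternatives for Slc17a6 were counted. Both steps were tested on simulated data. Replicates were separate animals.

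The 8 genes and all lists were chosen with earlier results of these data known, and the promoter motifs after the values were seen. Named genes were the 8 members, the 10 highest and 5 lowest by r with Slc17a6, the nearest gene of each member, and from each list at most 4 with the lowest p and those at 0 in most animals. Chat, Eif2s3y, Lhx2, Nes, Pou3f1 and Ttr fall outside that rule and were named after their values were seen. The alternatives were DESeq2 1.42.0, limma-voom 3.58.1 with and without a block for title sets (consensus correlation 0.17), other scalings and filters, models of the compared groups alone, a granule cell score as covariate, and leaving out each animal in turn. Results for some listed genes and for 1 cell type score are not reported here.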

Additional observations from a re-analysis of the deposited data

Results flagged for a closer look

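Among the 32 combinations of a gene and a group, 3 had an animal far from the rest of its group on the log2 scale by Dixon's gap criterion, where chance alone gives about 1 in 20. NT male 6112 was far above the other NT males for Lhx9, at 7.28 CPM against 0.694 CPM for the next animal, and for Nefh, at 1414 CPM against 543 CPM. NT female 1011 was the highest NT female for Slc17a6, at 2.90 CPM against 2.52 CPM, in a group whose 5 values spanned 1.18-fold. The Lhx9 difference between NT males and females turned negative without NT male 6112.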

How the results depend on the processing

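For NT males against NT females, 4 of the 8 genes were called, 1 under limma-voom, 0 with the title set block and 0 with the granule cell score. Leaving out each animal gave 2 to 5 genes called, with 2 when NT male 6112 or NT female 1011 was left out. Over all animals the 4 became 2 under limma-voom and 0 under both the block and the granule cell score. For LB against NT rats DESeq2 called 1 of the 8 in males (Spp1) and 1 over all animals (Pvalb), where edgeR called 0, and over all animals leaving out each animal gave 0 to 1.

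With the granule cell score, the difference between NT males and females was -0.14 for Nefh, -0.074 for Nefl and -0.85 for Lhx9, and over all animals -0.10 for Nefl. In that model LB males differed from NT males by 0.081 for Slc17a6, and LB females from NT females by -0.29 for Spp1. For Lhx9 in NT rats DESeq2 gave -0.24 and leaving out single animals gave -0.32 to 1.79. The cause of these changes was not tested. For Spp1 over both sexes DESeq2 gave no adjusted p.

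Of the 28 pairs of genes, 17 were correlated, 4 without the 2 farthest animals (Nefl with Lhx9 at -0.00011), 5 centred on title sets, and 7 to 18 when single animals were left out. With adjustment here over the 12 scores alone, Slc17a6 passed with 5, with 1 when centred on groups, 0 when centred on title sets, and 3 to 6 without single animals.

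Among all genes, 1840 were called between NT males and females. The number was 2477 by DESeq2, 1230 by limma-voom, 3 with the granule cell score, 2 with the block, and 590 (without NT female 1011) to 2735 (without LB female 5022) without single animals. Between LB males and females it was 30, with 408 by DESeq2, 4 with the block, and 12 to 1059 without single animals, the highest without LB female 5022. Over all animals it was 3546, and 5 with the granule cell score and 1023 with the block. For LB against NT over all animals it was 1, with 103 by DESeq2 and 330 without LB female 8021. No paired analysis was possible because replicate numbers only name the animals.

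Depth limits Lhx9 most, with at most 3 counts in 5 animals, and 5 NT females limit every comparison with them.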
